A study of Mus musculus with 6 samples.

Results

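The genes described here encode the proteins of the cytosolic ribosome. They were chosen by name: rows of the value table paired with exactly 1 gene symbol, that symbol being Rpsa, Rplp0, Rplp1, Rplp2, or Rpl or Rps with a number and at most one of the letters a, l or x. The brightest row stood for each gene. The rule found 38 of the 30746 genes tested, of which 14 encode proteins of the small subunit, 18 proteins of the large subunit, and 6 variant or like-named copies (Rpl3l, Rpl6l, Rpl10l, Rpl32l, Rpl39l and Rps27l). A roster of 80 ribosomal proteins, 33 small and 47 large, showed what the rule leaves out. It takes in 32 of them, since 37 were found only in rows that carry several symbols, such as those of pseudogenes, and 9 had no named row here. Fau and Rps3a1, the remaining 2, had rows of their own whose symbols the rule does not take.

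The study profiled RNA on microarrays in mouse leukemia. Cells had been given the fusion oncogene MLL-AF9 by a retrovirus (MSCV-MLL-AF9-IRES-GFP), whose GFP also marks the infected cells, and injected into recipients. The 3 Ppara-/- arrays are of leukemia from cells without a working Ppara gene, which encodes a nuclear receptor for fatty acids, and the 3 Ppara+/+ arrays of leukemia from cells with both copies. All 6 samples were GFP-positive bone marrow cells sorted from secondary transplant recipients, and all carry MLL-AF9. The labels name neither the age nor the genotype of the recipients. Nor do they say that replicates are of different mice or different first leukemias, so p-values here reflect the spread between these 6 samples, which may be technical. Markers of the labelled cells were bright: 10 of 11 measured had a mean signal above 7.91 on the log2 scale (on each array 95% of negative-control rows lie under some value, and 7.91 is the lowest of these), with the leukocyte antigen Ptprc at 9.19 ± 0.14 on Ppara-/- and 9.28 ± 0.27 on Ppara+/+ arrays (SD, n = 3 each). None of the 11 passed limma's adjusted test, and 5 had a positive and 6 a negative difference, with a median of -0.02. Kit and Hoxa10 had an unadjusted p under 0.05 and no overlap, with differences of 0.54 and 0.35, higher in Ppara-/- cells. Over all genes, 5.74% had such a p and 8.74% no overlap, in either direction. Hoxa10, at means of 6.75 on Ppara-/- and 6.40 on Ppara+/+ arrays, was the only marker of the 11 not above 7.91. The most negative difference was that of Fcgr3, -0.35. Ppara itself gave 5.29, 5.05 and 5.23 on the Ppara-/- arrays and 4.87, 5.19 and 5.18 on the Ppara+/+ arrays, close to the negative controls in both, and does not check the genotype. In bulk samples like these, fewer cells of a type and less RNA per cell cannot be told apart.

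Every ribosome is built from a small subunit, which reads the messenger RNA, and a large subunit, which joins amino acids. Their proteins are needed in nearly equal numbers, and the mRNAs of most begin with a C followed by a run of pyrimidines, the 5′ terminal oligopyrimidine (TOP) element, through which mTOR and LARP1 control their translation together. Loss of 1 copy of several of these genes causes Diamond-Blackfan anemia in people, in which red cell production fails, and free RPL5 and RPL11 bind MDM2 and so stabilise p53. In leukemia cells ribosome synthesis is linked to growth, and MYC drives it.

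To show TOP-like runs of pyrimidines near the start, the letters around the annotated transcription start (GRCm38.p6, RefSeq) are given for 8 members, from 15 bases before the start to 15 bases from it on, 5′ to 3′ on the gene's strand, so that the start is the base after the first 15. Capitals mark the longest run of at least 8 letters that begins with C and holds only C and T.
Rpl37a (chr1:72711245-72711274, plus strand): ttccgctcgccggtctaaaaccgcgcatgc
Rpl4 (chr9:64173372-64173401, plus strand): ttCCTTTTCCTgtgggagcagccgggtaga
Rpl32l (chr10:20208424-20208453, plus strand): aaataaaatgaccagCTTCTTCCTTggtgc
Rpl7a (chr2:26910792-26910821, plus strand): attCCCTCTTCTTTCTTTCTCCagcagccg
Rpl38 (chr11:114668565-114668594, plus strand): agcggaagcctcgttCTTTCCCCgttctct
Rps10 (chr17:27635230-27635259, minus strand): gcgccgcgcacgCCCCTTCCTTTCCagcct
Rplp0 (chr5:115559452-115559481, plus strand): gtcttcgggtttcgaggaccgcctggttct
Rpl10l (chr12:66284387-66284416, minus strand): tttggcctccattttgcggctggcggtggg
Rpl37a and Rpl4 are shown as the members with the highest and the lowest difference, Rpl32l and Rpl10l as copies with and without the run, Rplp0 as a common reference gene, and the others for their runs of 19, 8 and 13 letters.

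Promoters were given for 32 of the 38 members and not for Rpl6l, Rpl7, Rpl8, Rps14, Rps20 and Rps29. The pyrimidine run lay within these 30 bases, on the gene's strand, in 14 of the 32 (43.8%), against 10.8% of the 27025 genes with a promoter in the table. The letters CGGAAG, the core to which ETS family factors bind, occurred on either strand in the 300 bases around the start (250 before, 50 after) of 21 of the 32 (65.6%), against 18.8% of all. A gene counted when any of its annotated starts had the match, 11 members had both and 8 neither, and the 2 patterns can share letters. RefSeq starts are often some bases away from the start used in a cell, so a missing run says only that these letters are not in this window. A run counted anywhere in the window, and that of Rpl4 ends before the annotated start, so a counted run need not begin the mRNA. Members with the run had a median log2 difference of -0.04 between genotypes (n = 14) and those without it -0.03 (n = 18). In both sets some rows lie on another chromosome than the gene whose promoter was read, and may be of a copy. These are Rpl7a, Rpl31 and Rpl35 with the run, and Rpl12, Rpl27 and Rpl41 without it.

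Cytosolic ribosomal protein mRNAs did not differ detectably between Ppara-/- and Ppara+/+ leukemia. None of the 38 members passed the test, where 0.117% of all genes did (limma's moderated test, Benjamini-Hochberg adjusted p under 0.05 over 30746 genes, with member values of 0.821 to 0.997). At an unadjusted p under 0.05 stood 1 of 38, Rpl37a, higher in Ppara-/- cells, against 5.74% of all genes in either direction, 3.14% higher and 2.6% lower. The 3 values of the genotypes did not overlap in 2 members, both lower in Ppara-/- cells (Rpl11 and Rpl31), against 8.74% of all genes in either direction, 3.62% lower and 5.11% higher. The median log2 difference over the members was -0.04, with 13 positive and 25 negative, beside 0.02 over all genes and -0.02 over the 4421 genes whose mean signal lay above 7.91.

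These values bound the size of a change in signal. The 95% interval of the difference (limma, unadjusted) lay within -0.5 to 0.5 on the log2 scale, a 1.41-fold ratio either way, for 34 of 38 members, and its median half-width was 0.28. The outermost bounds over all members were -0.62, for Rpl4, and 0.64, for Rpl37a. In 29 members the difference was smaller than its own SE, and in 37 it was smaller than the range of the 3 Ppara+/+ values. RMA, the normalization that the submitters' processing notes name, usually equalises the distributions of arrays, and a shift of most mRNAs together would then not be seen.

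**Figure D1:**
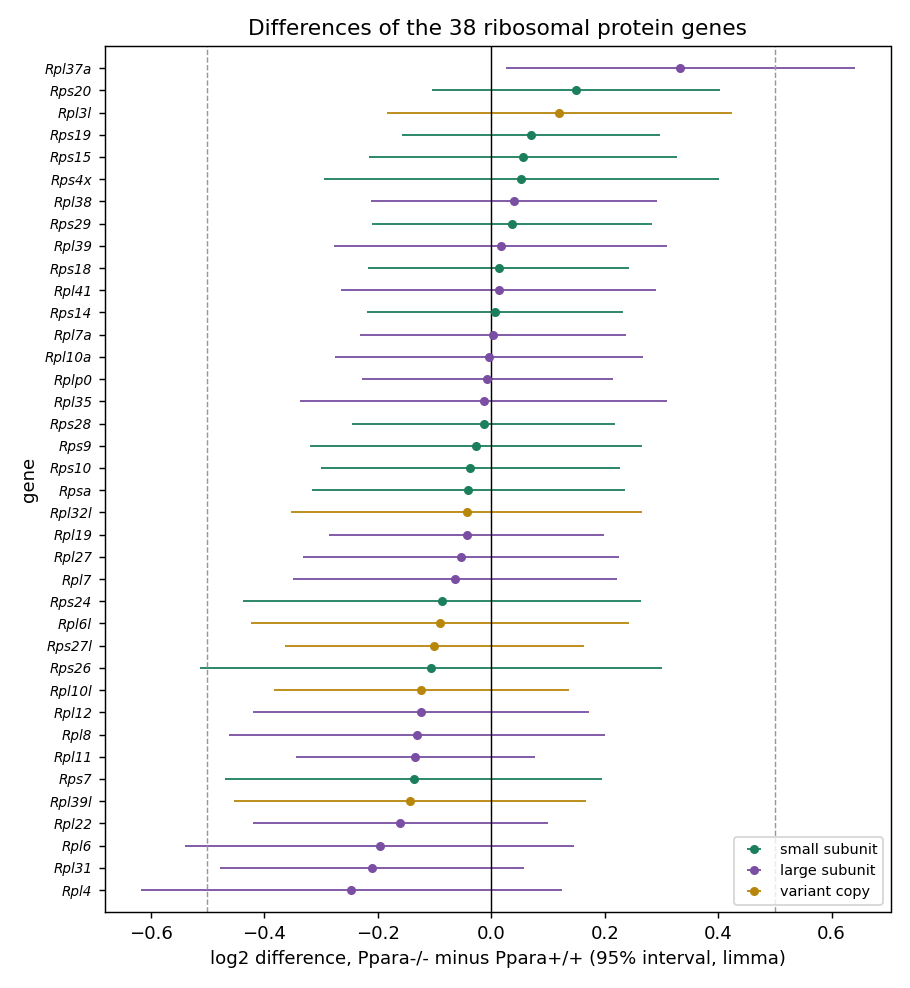
Log2 difference in signal (Ppara-/- minus Ppara+/+, horizontal axis) for each of the 38 ribosomal protein genes (vertical axis), with its 95% interval from limma, coloured by subunit; dashed lines mark -0.5 and 0.5. Only the interval of Rpl37a excludes 0, and all 38 points lie between -0.25 and 0.33.

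Signals of the members spread widely between rows, and since each row has its own probes their order is not an order of RNA levels. The brightest were Rpl4 and Rpl12, large subunit proteins, with means over the 6 arrays of 12.09 and 12.08, then Rps29 (11.84), Rps26 (11.60) and Rpl35 (11.57). Of the 38, 19 were among the brightest 5% of all genes and 23 had a mean above 7.91 (60.5%, against 14.4% of all genes). The dimmest were Rpl39l (4.53), Rpl3l (5.03), Rpl31 (5.30), Rpl10l (5.77) and Rpl11 (6.70), all under that value. A fall in such dim rows could be missed.

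**Figure D2:**
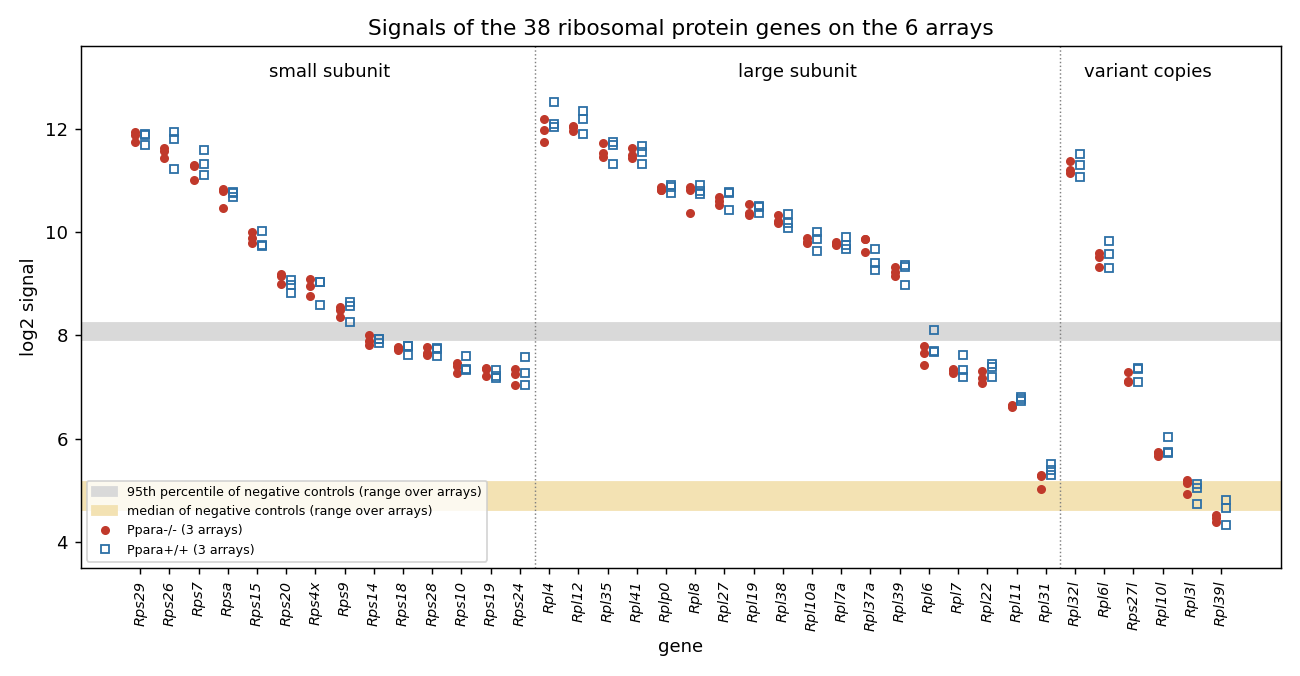
Log2 signal (vertical axis) of the 38 genes (horizontal axis, by subunit and then by mean), with 1 point per array, Ppara-/- as filled circles left of Ppara+/+ as open squares; grey and yellow bands give the 95th percentile and the median of the negative controls over the arrays. The genotypes overlap in all but Rpl11 and Rpl31, and Rpl3l and Rpl39l lie near the negative-control medians.

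Among large subunit proteins, differences ran from -0.25 to 0.33 with a median of -0.05, 5 positive and 13 negative. Rpl37a, a small zinc-binding protein that contacts ribosomal RNA, had the largest positive difference of the 38. Its signals were 9.86, 9.62 and 9.87 on the Ppara-/- arrays, against 9.40, 9.68 and 9.27 on the Ppara+/+ arrays. Ppara+/+ replicate 2 lay above Ppara-/- replicate 2, so the groups overlapped by that pair. The log2 difference was 0.33 (SE 0.13, interval 0.03 to 0.64, a signal ratio of 1.26; limma adjusted p = 0.821). It lay between 0.24 and 0.45 under the other settings and with arrays left out, and never passed the adjusted test.

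Rpl4, a core protein that lines the exit tunnel of the nascent chain, had the most negative difference. Its signals were 11.97, 12.18 and 11.75 on the Ppara-/- arrays, against 12.52, 12.08 and 12.04 on the Ppara+/+ arrays. The highest value belonged to Ppara+/+ replicate 1, and the other 2 Ppara+/+ values lay inside the Ppara-/- range. The difference was -0.25 (SE 0.16; limma adjusted p = 0.997) with all arrays, -0.09 without Ppara+/+ replicate 1, -0.14 without Ppara-/- replicate 3, and from -0.35 to -0.25 with any of the other 4 arrays left out. Rpl6, also of the large subunit, was likewise highest on Ppara+/+ replicate 1 and lowest on Ppara-/- replicate 3, with 7.65, 7.80 and 7.43 on the Ppara-/- arrays, against 8.10, 7.68 and 7.69 on the Ppara+/+ arrays, and a difference of -0.20 (SE 0.15), which ran from -0.28 to -0.06 with each array left out. Rpl12, which with the P stalk helps to recruit elongation factors, was at 12.06, 12.03 and 11.95 on the Ppara-/- arrays, against 12.34, 12.18 and 11.89 on the Ppara+/+ arrays.

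Rpl11, a partner of RPL5 in the particle that binds MDM2, was the steadiest of the members whose genotypes did not overlap. It was at 6.64, 6.65 and 6.61 on the Ppara-/- arrays, against 6.76, 6.81 and 6.73 on the Ppara+/+ arrays. All 3 Ppara-/- values lay just under the lowest Ppara+/+ value, with a difference of -0.13 (SE 0.09; limma adjusted p = 0.997). Rpl31 was at 5.28, 5.29 and 5.02 on the Ppara-/- arrays, against 5.52, 5.40 and 5.30 on the Ppara+/+ arrays, a difference of -0.21 (SE 0.12), or -0.12 without Ppara-/- replicate 3. This dim row lies on another chromosome than the gene, and the brighter row that carries Rpl31 with its pseudogene Rpl31-ps12 had overlapping groups, at 9.60, 9.59 and 9.54 on the Ppara-/- arrays, against 9.78, 9.71 and 9.53 on the Ppara+/+ arrays.

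Rpl22, whose gene is deleted in some human T cell leukemias, was at 7.31, 7.17 and 7.07 on the Ppara-/- arrays, against 7.44, 7.39 and 7.20 on the Ppara+/+ arrays. Its groups overlapped, with a difference of -0.16 (SE 0.11), or -0.10 without Ppara-/- replicate 3. The paralog Rpl22l1, outside the rule, had a difference of 0.03 (SE 0.16). Rplp0, the base of the P stalk and a common reference gene, was among the steadiest, at 10.88, 10.82 and 10.81 on the Ppara-/- arrays, against 10.90, 10.88 and 10.75 on the Ppara+/+ arrays. Its difference was -0.01 with an interval of -0.23 to 0.22. Of the other reference genes, Rpl19 had a difference of -0.04 and Rps18 of 0.01, each with an SE of 0.11 or less. Rpl8, of the catalytic centre, was lowest on Ppara-/- replicate 3 and differed by -0.13 (SE 0.15). The large subunit proteins not described elsewhere, Rpl7, Rpl10a, Rpl38 and Rpl39, lay between -0.06 (Rpl7) and 0.04 (Rpl38).

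Among small subunit proteins, differences ran from -0.14 to 0.15 with a median of -0.003, 7 positive and 7 negative. Rps20 was at the upper end, with 9.19, 8.99 and 9.14 on the Ppara-/- arrays, against 9.07, 8.98 and 8.82 on the Ppara+/+ arrays (difference 0.15, SE 0.11). Rps7 was at the lower end, with 11.28, 11.30 and 11.01 on the Ppara-/- arrays, against 11.58, 11.32 and 11.10 on the Ppara+/+ arrays (difference -0.14, SE 0.15). Both had overlapping groups, and both differences changed with the array left out. The difference of Rps20 was 0.08 without Ppara+/+ replicate 3, and 0.21 without Ppara-/- replicate 2 or Ppara+/+ replicate 1. That of Rps7 was -0.01 without Ppara+/+ replicate 1. Leaving out Ppara-/- replicate 3 gave Rps7 a difference of -0.04, and leaving out Ppara+/+ replicate 3 one of -0.25. Rps14, whose loss from one chromosome underlies the anemia of a human myelodysplastic syndrome, had one of the smallest differences, 0.01 (SE 0.10), at 7.91 ± 0.10 on Ppara-/- and 7.90 ± 0.03 on Ppara+/+ arrays (SD, n = 3 each). Rps15, mutated in some human chronic lymphocytic leukemias, had a difference of 0.06 (SE 0.12), and the remaining small subunit members were Rps4x (0.05), Rps9 (-0.03) and Rpsa, also known as a laminin receptor (-0.04). The 4 measured genes of the leukemia list (Rpl11, Rpl22, Rps14 and Rps15) had a median of -0.06, with 2 positive and 2 negative.

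Of 18 listed genes of human Diamond-Blackfan anemia, 11 were members, with 2 positive and 9 negative differences and a median of -0.05. Of the 11, 0 passed limma's adjusted test (0.117% of all genes) and 0 had an unadjusted p under 0.05 (5.74% of all genes in either direction). The genotypes did not overlap in 2, Rpl11 and Rpl31, both lower in Ppara-/- cells (3.62% of all genes lower, 8.74% in either direction). Rps19, the gene most often mutated in this anemia, was at 7.36, 7.22 and 7.34 on the Ppara-/- arrays, against 7.21, 7.32 and 7.18 on the Ppara+/+ arrays (difference 0.07, SE 0.10). The others were Rps7, Rpl11 and Rpl31, given above, with Rps24 (-0.09), Rps26 (-0.11), Rpl27 (-0.05), Rps10 (-0.04), Rps28 (-0.01), Rpl35 (-0.01) and Rps29 (0.04). The rows used for Rpl27, Rpl31 and Rpl35 lie on another chromosome than the gene. Without Ppara+/+ replicate 1 the median of the 11 was 0.003, without Ppara+/+ replicate 2 it was 0.005, and without Ppara+/+ replicate 3 it was -0.15.

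The 6 variant or like-named copies had a median difference of -0.10, with 1 positive and 5 negative. Those with a restricted range of tissues were dim here. Rpl10l and Rpl39l, which serve male germ cells, were at 5.71 ± 0.04 and 4.46 ± 0.07 on the Ppara-/- arrays, against 5.83 ± 0.17 and 4.60 ± 0.25 on the Ppara+/+ arrays (SD, n = 3 each). Rpl3l, of heart and skeletal muscle, was at 5.09 ± 0.14 on the Ppara-/- arrays, against 4.97 ± 0.20 on the Ppara+/+ arrays. Rpl3l and Rpl39l lay near the negative-control medians of 4.63 to 5.16, Rpl10l lay above them but under 7.91, and with all arrays the intervals of all 3 differences include 0. The difference of Rpl39l was -0.14 (SE 0.14) with all arrays and -0.28 (SE 0.10) without Ppara+/+ replicate 1. Rps27l, a p53 target, was at 7.29, 7.10 and 7.12 on the Ppara-/- arrays, against 7.37, 7.34 and 7.10 on the Ppara+/+ arrays (difference -0.10, SE 0.12). Rps4l, whose row carries an older second symbol and so falls outside the rule, was at 5.71 ± 0.37 on the Ppara-/- arrays, against 5.54 ± 0.47 on the Ppara+/+ arrays. Rpl7l1 differed by 0.03 (SE 0.15). The like-named loci Rpl32l and Rpl6l were bright, at 11.24 ± 0.12 and 9.48 ± 0.14 on the Ppara-/- arrays, against 11.29 ± 0.23 and 9.57 ± 0.26 on the Ppara+/+ arrays, and their probes may also match Rpl32 and Rpl6 mRNA.

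Ribosomal protein genes have many near-identical pseudogenes, so a signal may be shared between copies. The first digits of a row's identifier give a chromosome, which equalled that of the RefSeq gene for 99.8% of 30356 genes. Among the members it differed for 6 of 38, Rpl7a, Rpl12, Rpl27, Rpl31, Rpl35 and Rpl41, so that the brightest row may be that of a copy. For Rpl27 the row used was at 10.60 ± 0.08 on the Ppara-/- arrays, against 10.65 ± 0.19 on the Ppara+/+ arrays, and the row on the gene's own chromosome at 6.99 ± 0.08 on the Ppara-/- arrays, against 7.01 ± 0.14 on the Ppara+/+ arrays (SD, n = 3 each). Differences of the 2 rows were -0.05 and -0.02. For Rpl41 they were 0.01 and -0.12, for Rpl35 -0.01 and -0.03, and for Rpl7a 0.00 and 0.07. Rps26 had 2 bright rows with differences of -0.11 and -0.08 and another at 3.57, under the negative-control medians.

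Rows that the rule leaves out are given as values with no test. The 53 rows with several symbols had a median difference of -0.03 (20 positive, 32 negative, 1 at 0), and the 208 rows named for ribosomal protein pseudogenes one of -0.01. Rpl5, the partner of RPL11, had differences of -0.08 and -0.07 in its 2 rows, Rplp1 of -0.03 and Rplp2 of 0.10. Larger differences, named after their values were seen, included those of rows of Rpl30 (-0.25), Rpl28 (-0.22), Rps6 (-0.22) and Rpl36 (0.23). The Rpl30 row was at 7.31, 7.45 and 7.14 on the Ppara-/- arrays, against 8.08, 7.43 and 7.15 on the Ppara+/+ arrays, so only Ppara+/+ replicate 1 stood apart. Rps12 was also among them, with 3 rows all higher in Ppara-/- cells by 0.35, 0.22 and 0.21. The brightest Rps12 row had no overlap, at 12.04, 11.92 and 11.96 on the Ppara-/- arrays, against 11.85, 11.83 and 11.58 on the Ppara+/+ arrays, and the groups of the other 2 overlapped. A row of Rpl29 was the only one of the 53 that was lower in Ppara-/- cells without overlap (difference -0.14). Of all genes tested, 3.62% were lower and 5.11% higher without overlap. The Rps12 rows also carry symbols of Rps12 pseudogenes and may share signal with them. Fau, which makes a small subunit protein, was at 11.64, 11.48 and 11.37 on the Ppara-/- arrays, against 11.74, 11.61 and 11.66 on the Ppara+/+ arrays (difference -0.17, SE 0.11), and Rps3a1 had a difference of -0.05 (SE 0.12). The genotypes of Fau overlapped only through Ppara-/- replicate 1.

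Arrays of one genotype differed among themselves: the range of the 3 Ppara-/- values exceeded the difference between genotypes in 33 of 38 members, and that of the 3 Ppara+/+ values in 37. Ppara+/+ replicate 3 gave the lowest of the 6 values in 22 of 38 members and Ppara+/+ replicate 1 the highest in 17. In 34 members Ppara+/+ replicate 1 lay above Ppara+/+ replicate 3, and in 36 Ppara-/- replicate 1 lay above Ppara-/- replicate 3. The median deviation of the members from their own 6-array means was 0.06, -0.02 and -0.08 on Ppara-/- replicates 1, 2 and 3, and 0.06, 0.08 and -0.12 on Ppara+/+ replicates 1, 2 and 3. The median negative-control signal on the same arrays was 4.63, 4.99 and 4.65 for Ppara-/-, and 5.16, 4.67 and 4.81 for Ppara+/+. With that signal as a covariate the members' median difference between genotypes was -0.01, and 3 members changed sign. Its part in the members' spread between arrays was not tested. On Ppara+/+ replicate 1 Rpl4, Rpl6, Rps26 and Rps24, among others, stood above their means, while Rpl37a, Rpl3l, Rpl6l and Rpl39l were among those below.

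**Figure D3:**
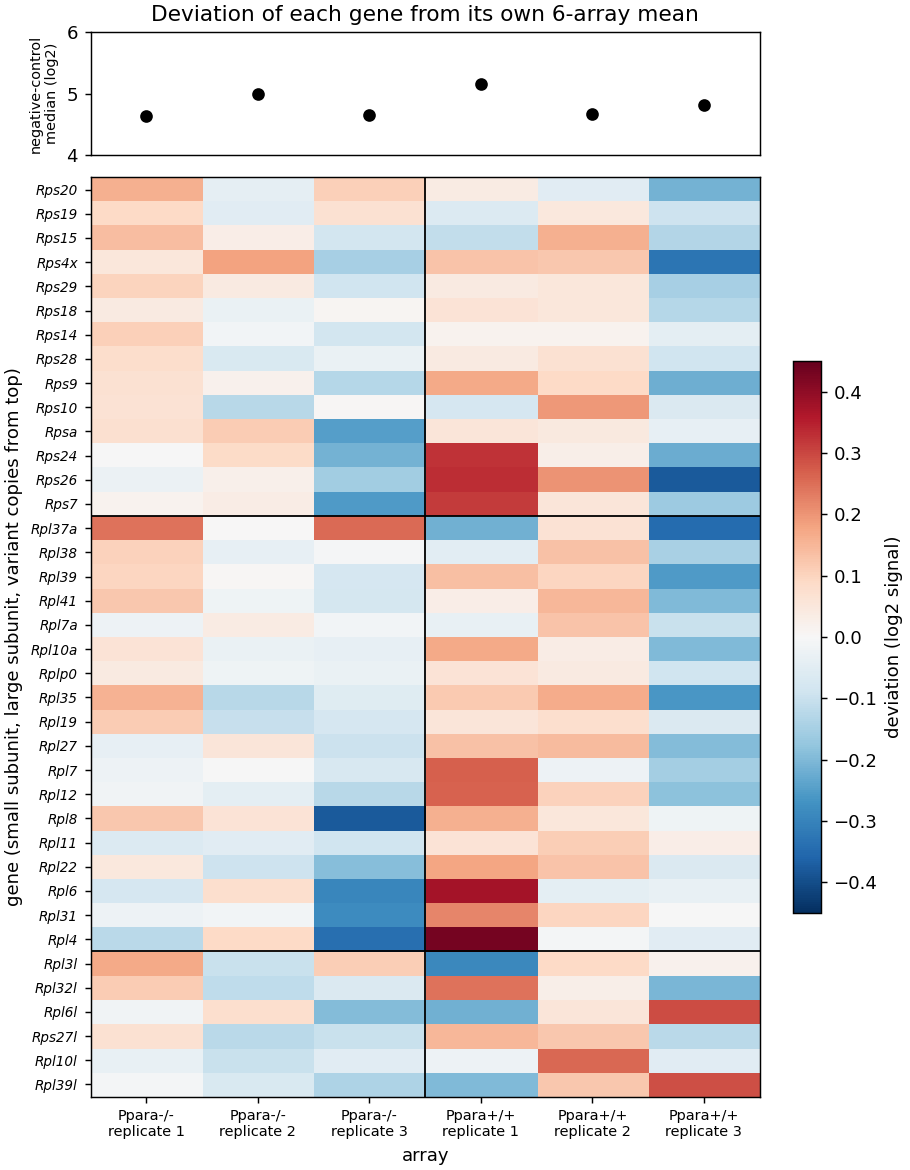
Deviation of each gene from its own mean over the 6 arrays (colour, log2 signal), with genes down the page and arrays across, the 3 Ppara-/- arrays left of the 3 Ppara+/+ arrays; the upper panel gives each array's median negative-control signal. Ppara+/+ replicate 3 is lowest for 22 of the 38 genes, and the columns of one genotype differ among themselves.

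None of the other genes measured on the translation pathway lists passed limma's adjusted test. Over all genes 0.117% did, 5.74% had an unadjusted p under 0.05 and 8.74% had no overlap, each in either direction. Of 98 measured genes of rRNA processing and ribosome assembly, 0 passed, 1 had an unadjusted p under 0.05, 29 were positive and 69 negative, with a median of -0.07. Rrp1b, a nucleolar protein, was at 6.40, 6.25 and 6.35 on the Ppara-/- arrays, against 7.21, 6.69 and 6.60 on the Ppara+/+ arrays, with no overlap (difference -0.50, SE 0.16; limma adjusted p = 0.602). Wdr46 (-0.45) and Imp3 (0.22), both of small subunit assembly, came next by p, with overlapping groups for Wdr46 and no overlap for Imp3. Of the 98, 1 was higher and 4 were lower in Ppara-/- cells without overlap. Leaving out Ppara+/+ replicate 1 gave these 98 a median of 0.05, leaving out Ppara-/- replicate 3 one of -0.03, and leaving out Ppara+/+ replicate 2 or 3 one of -0.14. Of 14 genes of RNA polymerase I and its factors 0 passed, with a median of -0.05, which ran from -0.10 without Ppara+/+ replicate 3 to -0.02 without Ppara+/+ replicate 1. Taf1c, the one gene of these with an unadjusted p under 0.05, was at 7.35 ± 0.09 on the Ppara-/- arrays, against 7.11 ± 0.04 on the Ppara+/+ arrays (SD, n = 3 each), with no overlap. Twistnb differed by -0.25 with overlapping groups, and Polr1e by -0.14 with no overlap.

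Initiation factors had a median of -0.16 over 30 genes (4 positive, 26 negative), elongation and termination factors -0.14 over 11 (all negative), and TOP mRNAs other than the members -0.17 over 19 (2 positive, 17 negative). None passed limma's adjusted test, and Vim alone had an unadjusted p under 0.05. Vim, an intermediate filament of mesenchymal and myeloid cells, was at 11.30, 11.14 and 11.66 on the Ppara-/- arrays, against 12.43, 11.87 and 12.15 on the Ppara+/+ arrays with no overlap (difference -0.78, SE 0.18; limma adjusted p = 0.240). Eif3h differed by -0.25, Eif1ax by -0.26, Eif2b1 by -0.18, Eef1e1 by -0.23, Eif5a by -0.21 and Gspt1 by -0.31, and the genotypes overlapped in each. These 3 medians were -0.02, -0.07 and -0.06 without Ppara+/+ replicate 1, an array on which the members of the 3 lists averaged 8.86, 9.40 and 10.18, above each of the other 5 arrays, and -0.07, -0.07 and -0.06 without Ppara-/- replicate 3. They were further from 0 without Ppara+/+ replicate 3, at -0.20, -0.26 and -0.22, and without Ppara-/- replicate 2 or Ppara+/+ replicate 2 the elongation median was -0.21 or -0.22. Leaving out Ppara-/- replicate 1 brought the initiation median to -0.10. Without both Ppara-/- replicate 2 and Ppara+/+ replicate 1, the 2 arrays of highest negative-control signal, the 3 medians were -0.12, -0.095 and -0.115. Negative differences then stood in 22 of 30, 11 of 11 and 15 of 19 genes. Whether the members differ from these lists was not tested, and the lists share genes.

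Growth control genes (mTOR, MYC and their partners) had a median of 0.04 over 21 genes, with 0 past limma's adjusted test and 0 at an unadjusted p under 0.05, and between 0.01 and 0.07 with each array left out (lowest without Ppara+/+ replicate 2, highest without Ppara+/+ replicate 1). Eef2k, the kinase that slows elongation, was at 8.70, 8.43 and 8.71 on the Ppara-/- arrays, against 8.49, 8.29 and 8.30 on the Ppara+/+ arrays (difference 0.25, SE 0.12; limma adjusted p = 0.918). The MYC antagonist Mxd1 and Mycn differed by 0.29 and 0.24. Of 16 genes of the p53 pathway, downstream of free RPL11, 0 passed limma's adjusted test, against 0.117% of all genes. Cdkn1a and Pmaip1, 2 of the 16, had an unadjusted p under 0.05. Over all genes, 5.74% had such a p and 8.74% no overlap, in either direction. The median over the 16 was 0.03. That median has no settled direction, being -0.01 without Ppara-/- replicate 3 and 0.004 without Ppara+/+ replicate 1. Leaving out Ppara+/+ replicate 3 gave 0.08. Cdkn1a, the cell cycle inhibitor p21, was at 8.07, 8.27 and 8.62 on the Ppara-/- arrays, against 9.09, 8.92 and 9.52 on the Ppara+/+ arrays, with no overlap (difference -0.86, SE 0.19; limma adjusted p = 0.224). Pmaip1, a killer protein of the BCL2 family, lay the other way, at 9.67, 9.68 and 10.16 on the Ppara-/- arrays, against 9.44, 8.79 and 9.43 on the Ppara+/+ arrays, also with no overlap (difference 0.62, SE 0.21, limma adjusted p = 0.634). Ccng1 differed by -0.53 with overlapping groups.

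**Figure D4:**
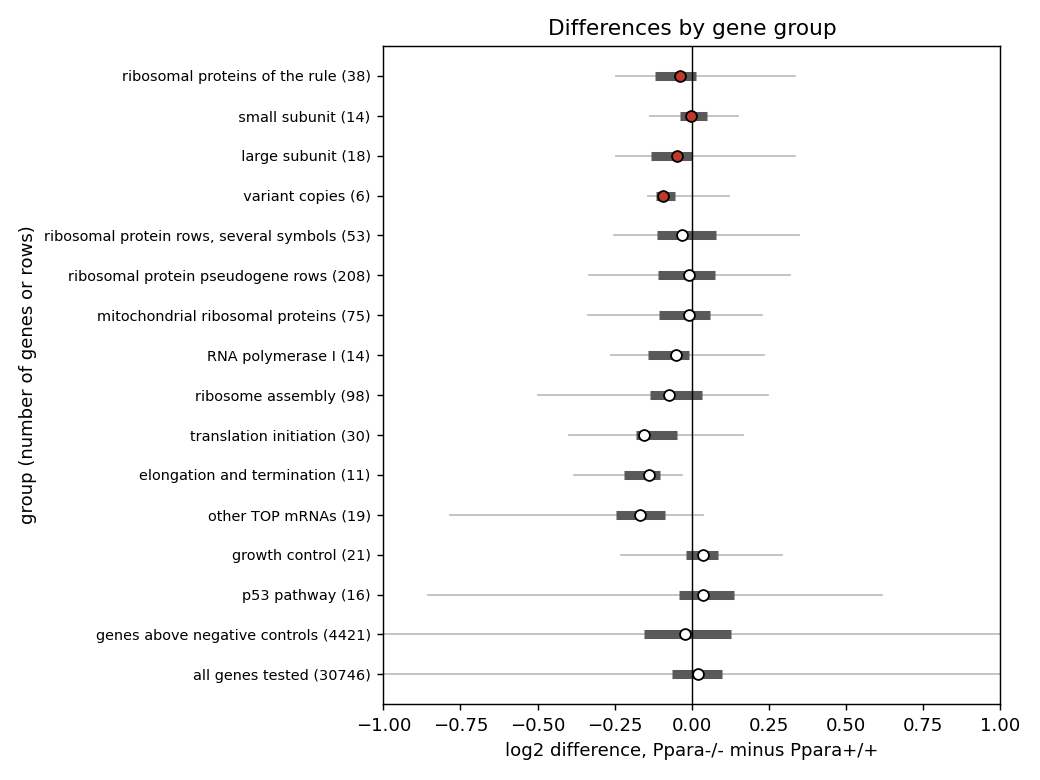
Log2 differences (Ppara-/- minus Ppara+/+, horizontal axis) by group of genes or rows (vertical axis, number in brackets): point, median; thick bar, middle 50% of genes; thin line, full range, which for the last 2 groups runs past the axis. The median of the 38 ribosomal protein genes is -0.04 and those of initiation, elongation and other TOP mRNAs are -0.16, -0.14 and -0.17.

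The 75 mitochondrial ribosomal protein genes, which build the separate ribosome of mitochondria, had a median difference of -0.01 with 0 past limma's adjusted test and 1 at an unadjusted p under 0.05, and the 38 measured proteasome genes, another large complex, -0.09 with 0 and 1. Of the erythroid, T, B, NK, megakaryocyte and stromal markers measured (9, 10, 7, 6, 4 and 9), none had a mean over the 6 arrays above 7.91 and none passed limma's adjusted test. Cd79b and Pdgfrb, of the B cell and stromal lists, had an unadjusted p under 0.05 and no overlap. Cd79b was at 7.68, 7.49 and 7.32 on the Ppara-/- arrays, against 7.95, 7.72 and 8.01 on the Ppara+/+ arrays (difference -0.40; limma adjusted p = 0.618), and so above 7.91 on 2 Ppara+/+ arrays. Pdgfrb was at 5.79, 5.44 and 5.90 on the Ppara-/- arrays, against 6.95, 6.53 and 6.73 on the Ppara+/+ arrays (difference -1.03; limma adjusted p = 0.072). Of 12 monocyte markers, 10 had a negative and 2 a positive difference (Ccr2, 0.37, and Mrc1, 0.07). Clec4a1 alone passed limma's adjusted test, lower in Ppara-/- cells, and 7 had an unadjusted p under 0.05, all lower. Over all genes, 0.117% passed the adjusted test, 5.74% had an unadjusted p under 0.05 (2.6% lower) and 8.74% had no overlap. The list was chosen with earlier results of these data known, so these counts do not test whether monocytes differ. The 12 markers averaged 7.17 to 7.52 on Ppara-/- and 7.91 to 8.15 on Ppara+/+ arrays, with 6 of the 12 above 7.91. Late neutrophil markers averaged 10.00 to 10.18 on Ppara-/- and 9.57 to 10.13 on Ppara+/+ arrays, with none of 10 past limma's adjusted test. Retnlg (1.28) and Mmp8 (-0.65) had an unadjusted p under 0.05 and no overlap. The 8 early response genes of cell handling averaged 10.61 to 11.09 on Ppara-/- and 10.52 to 11.35 on Ppara+/+ arrays. Their part in the ribosomal protein values was not tested.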

How the data were processed

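RNA of 6 sorted leukemia samples was measured on Affymetrix arrays. The authors deposited log2 signals, with RMA and limma named in the submitters' processing notes and no version of either. Other settings were not given in the sources used here. Row identifiers have a different form from those of the named array model, which is therefore uncertain. Without detection calls, dim rows were not filtered out. Of 72688 rows, 31219 were paired with 1 gene by a platform annotation table, older symbols were replaced by way of gene IDs in RefSeq (GRCm38.p6), and the brightest row of each of 30746 genes was tested. The number of arrays limits the precision.

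Groups and replicate numbers came from the sample titles. The genotypes were set against each other in R 4.3.3 by limma 3.58.1 (lmFit, eBayes, two-sided, no covariates), adjusted over all genes, with the moderated SE and 95% interval, after a check on simulated data. Python 3.11.15, pandas 2.3.3 and matplotlib 3.10.9 made the tables and plots. The 5222 negative-control rows gave the signal level, 7.91, over which a gene was called bright. Named were the 12 members of smallest p, the 5 brightest and 5 dimmest, those on lists of the stalk, anemia, leukemia, reference and variant genes, and up to 3 of smallest p per pathway list; the other members, and genes that illustrate arrays or rows, were named after their values were seen. The members and lists were chosen with earlier results of these data known.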

Additional observations from a re-analysis of the deposited data

How the results depend on the processing

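No ribosomal protein gene passed limma's adjusted test in any of 16 alternative settings, nor with all arrays at an adjusted p under 0.1. The count at an unadjusted p under 0.05, 1 with all arrays, was 0 with a trended and robust prior, quantile normalization, only genes above the negative controls (23 members left), the replicate block or the negative-control signal as covariate, 3 with array weights or without the 2 arrays of highest negative-control signal, and 0 to 1 with each array left out. The member counted need not be Rpl37a. Without Ppara+/+ replicate 1 the difference of Rpl37a was 0.31 (SE 0.15) and that of the dim Rpl39l was -0.28 (SE 0.10). The median difference of -0.04 was 0.059 with array weights, lay between -0.10 and 0.01 with each array left out, was positive in 6 of 16 settings and negative in 10, and 0 to 16 of the members changed sign, so its direction is not settled. Over all genes limma called 36; this was 69 with the trended and robust prior, 13 with arrays shifted to the same median, 22 with quantile normalization, 14 with cyclic loess, 1 among genes above the negative controls, 277 with array weights, 12 with the replicate block, 74 at an adjusted p under 0.1, 6 to 36 with each array left out, and 0 without the 2 arrays of highest negative-control signal (2947 at an unadjusted p under 0.05); the causes were not tested. Deviations of same-numbered arrays correlated across genes at -0.33, -0.47 and 0.11. Those of Ppara-/- replicate 2 and Ppara+/+ replicate 1, the 2 arrays of highest negative-control signal, correlated at 0.50. With 3 arrays per genotype, such values cannot show whether the samples were paired. Signal near the negative controls limits the dim members.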
